A study of Bos taurus with 129 samples.

Results

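The comparison described here is that of cattle with bovine respiratory disease (BRD) against healthy cattle in whole blood taken on day 28 of a 60-day trace mineral feeding trial. Its members were found by the day and disease labels: the series holds RNA-seq libraries of 26 animals on 5 sampling days, with 1 healthy AAC library of day 13 not analysed here, and the 26 libraries of day 28 were taken, of which 14 come from animals labelled with BRD and 12 from animals labelled without it. All were commercial crossbred beef steers bought through an order-buyer, of unknown health history, hauled over a long distance and then vaccinated against respiratory viruses and dewormed on arrival, and they were vaccinated again before the day 28 sample. Every animal received copper, cobalt, manganese and zinc from 1 of 3 supplements, either sulfate salts in feed (INR, 4 healthy and 7 BRD), an amino acid complex in feed (AAC, 4 healthy and 4 BRD) or the same complex plus an oral mineral and vitamin drench (COMBO, 4 healthy and 3 BRD). The COMBO drench was given before shipment, at pen enrolment and again with any treatment for illness, so COMBO animals with BRD could have received more of it than healthy COMBO animals. The labels give disease as 1 state per animal that is the same on all 5 sampling days, and the day of diagnosis and the treatment given are not in the labels, so a day 28 sample labelled BRD may have been taken before, during or after illness. No day 28 sample is labelled for severity or pathogen.

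BRD is the pneumonia complex of recently transported cattle, in which respiratory viruses and stress open the lower airway to bacteria such as Mannheimia haemolytica. Blood carries several arms of the response to it. Virus-infected or alerted cells secrete type I interferon, which switches on a large set of interferon-stimulated genes in leukocytes. Neutrophils and monocytes are mobilised from the marrow, B cells mature into antibody-secreting plasma cells that depend on chaperones of the endoplasmic reticulum, and cattle also have an unusually large pool of gamma-delta T cells carrying WC1 receptors.

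The day 28 libraries held between 36848682 and 59809837 counts each, with a median of 47345545.5 in healthy and 46575253 in BRD animals, so depth was similar in both groups. Of the genes in the table, 16406 had enough counts to be tested. Haemoglobin transcripts took between 0.0102% and 1.98% of the counts, and the lineage lists for T cells, B cells, monocytes, neutrophils, platelets and red cells were all detected, as is usual for whole blood. The BRD animals 54 (COMBO) and 40 (INR) stood apart from the rest, with summed ribosomal protein transcripts of 100592 and 88269 CPM (counts scaled to library size with TMM factors) where no other library passed 56431. BRD animal 18 (COMBO) stood apart in type I interferon-stimulated genes. Results that rest on these animals are given with and without them. Supplements were fed by pen. The paper states that steers were later rotated between pens, whereas each animal has the same pen label on all days. Pen is therefore read here as the pen of enrolment. In COMBO all 4 healthy animals were enrolled in pen 5 and all 3 BRD animals in pen 6. Pen and disease therefore cannot be told apart within that supplement. Pen 7 held 4 INR animals with BRD and no healthy animal. Fits with pen as the covariate thus take the BRD difference from pens 2, 3, 4 and 8 alone, with no COMBO animal.

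Across all supplements no gene separated BRD from healthy cattle at day 28. With supplement as a covariate, edgeR's quasi-likelihood test with Benjamini-Hochberg adjustment called 0 of 16406 genes (0%) at an adjusted p below 0.10, and the smallest adjusted p was 0.172. At an unadjusted p below 0.05 there were 1455 genes, 787 of them higher in BRD (4.80% of those tested) and 668 lower (4.07%). Fold changes are given as log2 of BRD over healthy, so that a value of 1 is a doubling, and they lay above 0 for 8622 of the 16406 genes with a median of 0.01. limma voom called 1 gene and DESeq2 called 25 on the same libraries. The 95% interval of the fold change lay within 1 log2 unit of no difference for 14632 genes (89.2%) and within 0.5 for 10105 genes (61.6%). There was no gene for which every BRD library lay outside the range of the healthy ones (0 of 16406).

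Among the genes of smallest p that were higher in BRD, none of which passed the adjusted threshold, was MTHFD1L, the mitochondrial enzyme that makes formate for the folate cycle. It measured 35.19, 43.12 and 50.48 CPM (lowest, median and highest) in the 12 healthy animals and 41.81, 52.998 and 60.74 CPM in the 14 BRD animals. In 9 of the 14 BRD animals MTHFD1L lay above the highest healthy value, the other 5 lay within the healthy range, and the log2 fold change was 0.31 (SE 0.067, edgeR adjusted p = 0.231). BICDL1, an adaptor for dynein-driven vesicle transport, ran from 3.34 CPM through 8.48 to 13.7 in healthy animals and from 9.49 through 13.0 to 20.8 in BRD animals, with a log2 fold change of 0.82 (SE 0.177, edgeR adjusted p = 0.231). DUSP7, a phosphatase that inactivates ERK kinases, had medians of 61.5 and 83.4 CPM in healthy and BRD animals and a log2 fold change of 0.41 (SE 0.094, edgeR adjusted p = 0.277). The other members of this set were C10H15orf41, with medians of 8.86 and 10.98 CPM and a log2 fold change of 0.38, and LOC112444653, which RefSeq lists as a ribosomal RNA, with a log2 fold change of 0.79.

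Of the genes lower in BRD the smallest p belonged to LOC101904468, listed by RefSeq only as protein coding. It had between 3 and 71 reads in every healthy library, whereas 9 of the 14 BRD libraries had 0 and the highest had 15. In CPM that was 0.0649, 0.537 and 1.55 (lowest, median and highest) in healthy animals against a median of 0 and a highest value of 0.344 in BRD animals, so the groups overlapped only at the low end of the healthy range. The fitted log2 fold change was -3.49 (SE 0.633, edgeR adjusted p = 0.172), a size that depends on the prior count because most BRD libraries held no read. It was the 1 gene called by limma voom (adjusted p = 0.00529), and the DESeq2 adjusted p was 0.0137. FAM174A, a small membrane protein gene, had medians of 26.3 and 21.7 CPM and a log2 fold change of -0.36. LOC112446418 had medians of 130 and 99.3 CPM (log2 fold change -0.47), LOC112449353 had 1.42 and 0.544 CPM (-1.21), and the snoRNA LOC112444251 had 0.553 and 0.357 CPM (-0.57). All 9 of the genes in this and the preceding paragraph other than LOC112444251 were among the 25 called by DESeq2.

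The type I interferon-stimulated genes had the highest median of all the lists described here. All 35 tested members were above 0, with a median log2 fold change of 0.38 against 0.01 over all genes, and 10 of the 35 had an unadjusted p below 0.05, all higher in BRD, where 4.80% of all genes did. None passed the adjusted threshold. IFI6, a mitochondrial and reticulum protein that restrains flavivirus replication, ranged from 19.1 to 106.4 CPM with a median of 24.6 in healthy animals and from 16.7 to 269 CPM with a median of 48.5 in BRD animals. The ranges overlapped, and the log2 fold change was 0.97 (SE 0.296, edgeR adjusted p = 0.451). OAS2, which makes the oligoadenylates that activate RNase L, had medians of 747 and 790 CPM and maxima of 2102 and 4821 CPM, and a log2 fold change of 0.71. The other members with an unadjusted p below 0.05 were OAS1Y, ISG15, HERC6, IRF9, IFI27, ZBP1, IRF7 and RSAD2, which span the effectors, the ubiquitin-like modifier and the transcription factors of the pathway.

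Much of the interferon signal sat in 1 animal. The summed level of the type I interferon-stimulated genes was 3150, 4579 and 10013 CPM (lowest, median and highest) in healthy animals and 3476, 5682 and 20688 CPM in BRD animals, and the BRD maximum was animal 18, with the next BRD animal at 7394 CPM. Without animal 18 the median log2 fold change was 0.14, 28 of 35 members were above 0, and 2 had an unadjusted p below 0.05. IFI6 then had a log2 fold change of 0.69 and OAS2 of 0.34. On the other days, with all libraries scaled together, animal 18 had the highest sum of all animals on day 0 (40633 CPM) and day 45 (25532 CPM) but not on day 13 (8003 CPM) or day 60 (7459 CPM). Among healthy animals the highest was COMBO animal 6, and leaving it out raised the median to 0.46. The medians within supplements were 0.38 in AAC, 0.78 in COMBO and 0.24 in INR. The COMBO value turned to -0.33 without animal 18, with 9 of 35 members above 0, as the other BRD COMBO animals had 3832 and 5487 CPM against 4519 to 10013 CPM in healthy COMBO animals. When pen replaced supplement as the covariate, the median was 0.20, 30 of 35 members were above 0, and 0 of the 35 had an unadjusted p below 0.05 in edgeR's test.

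**Figure D1:**
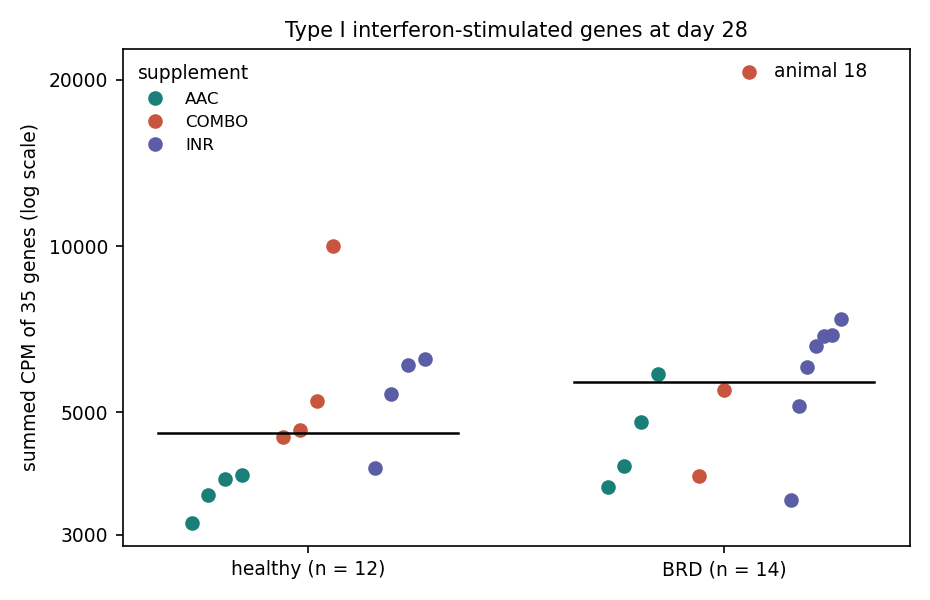
Summed CPM of the 35 type I interferon-stimulated genes in each day 28 library, in healthy and BRD animals, coloured by supplement, on a log axis. Each point is 1 animal and the lines mark the medians of the 12 healthy and 14 BRD animals, and BRD animal 18 at 20688 CPM lies far above the next BRD animal at 7394 CPM.

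T cell transcripts were also on the higher side in BRD animals. All 24 tested members of the alpha-beta T cell and naive markers were above 0 with a median log2 fold change of 0.24, and 7 had an unadjusted p below 0.05, all higher in BRD. In bulk blood more cells of a type and more RNA per cell cannot be told apart. CD247, the zeta signalling chain of the T cell receptor, had 150, 200 and 249 CPM (lowest, median and highest) in healthy animals and 137, 272 and 426 CPM in BRD animals, with a log2 fold change of 0.47. In 9 of 14 BRD animals CD247 lay above the healthy maximum, but the lowest value of all was also a BRD animal. TCF7, a transcription factor of naive and memory T cells, had medians of 393 and 477 CPM and a log2 fold change of 0.27. The summed level of the 24 genes ran from 2510 to 4502 CPM with a median of 3493 in healthy animals and from 2426 to 5078 CPM with a median of 4135 in BRD animals. All 24 stayed above 0 when any 1 animal was left out, with medians between 0.18 and 0.29. The medians within AAC, COMBO and INR were 0.50, 0.12 and 0.14. In AAC the summed level was 2619 to 4063 CPM in healthy and 4097 to 5078 CPM in BRD animals, and the ranges overlapped in COMBO and INR.

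Among the 10 tested gamma-delta T cell genes 9 were above 0, with a median log2 fold change of 0.34, and 6 had an unadjusted p below 0.05. Within AAC, COMBO and INR the list medians were 0.75, 0.38 and 0.21. WC1.3, one of the scavenger receptor family members that mark bovine gamma-delta T cells, had 66.25, 138 and 262 CPM (lowest, median and highest) in healthy animals against 99.99, 193 and 466.1 CPM in BRD animals, a log2 fold change of 0.60. WC1 genes are near-identical copies, so the split of reads among them is uncertain. GATA3, a T cell transcription factor that bovine gamma-delta cells share with other T cells, had medians of 49.95 and 69.1 CPM and a log2 fold change of 0.48. LAG3, the inhibitory receptor of activated T cells, had the smallest p of the regulatory T cell and checkpoint genes, with 15.26, 25.3 and 44.03 CPM in healthy animals and 20.8, 34.6 and 53.31 CPM in BRD animals (log2 fold change 0.62, SE 0.157, edgeR adjusted p = 0.408). The ranges of LAG3 overlapped in the pooled groups, and the highest BRD values came from the AAC animals described below. In that checkpoint list 12 of 17 members were above 0 with a median of 0.14. The NK and cytotoxic lymphocyte genes had 16 of 21 members above 0 and a median of 0.25, but their 2 leading transcription factors differed in sign, EOMES at 0.38 and TBX21 at -0.26.

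Most transcripts of antibody secretion had fold changes above 0 and most B cell markers below 0. Of the 15 plasma cell and antibody secretion genes 14 were above 0 (median log2 fold change 0.20, 7 with an unadjusted p below 0.05, all higher in BRD). MZB1, a chaperone for immunoglobulin assembly, had 31.15, 47.7 and 81.4 CPM (lowest, median and highest) in healthy animals and 27.4, 66.97 and 131.3 CPM in BRD animals, and its log2 fold change was 0.58. JCHAIN, which links IgM and IgA polymers, had medians of 495 and 618 CPM and a log2 fold change of 0.32. Of the 18 endoplasmic reticulum stress chaperones 16 were above 0 (median 0.17), and 11 had an unadjusted p below 0.05, the highest share of any list. DNAJB11, a co-chaperone of BiP, had medians of 43.44 and 52.5 CPM (0.27), and HSP90B1, the reticulum HSP90, had 522 and 640 CPM (0.33). When the supplement covariate was left out, the 11 became 0 with the median at 0.14, and the 7 plasma cell genes became 1 with the median at 0.17. With pen as the covariate these counts were 8 and 3. In contrast, 18 of the 21 B cell markers were below 0 (median -0.19), of which 1 had an unadjusted p below 0.05, CR2, the complement receptor of mature B cells (149 against 130 CPM at the median, log2 fold change -0.34). With pen in place of supplement the B cell median was -0.58 and 13 of the 21 had an unadjusted p below 0.05, all lower. That fit takes the BRD difference from pens 2, 3, 4 and 8, which hold all AAC animals and no COMBO animal. The summed B cell level had a median of 3505 CPM in healthy and 3851 CPM in BRD animals, with the lowest values in BRD animals of AAC. MS4A1, which encodes CD20, had medians of 738 and 752 CPM and a log2 fold change of -0.28, and its 4 lowest values were those of the BRD animals in AAC.

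The cell cycle and proliferation genes had 29 of 30 members above 0 with a median log2 fold change of 0.17, and 8 had an unadjusted p below 0.05, all higher in BRD, a count that was 1 with no covariate and 1 with pen as the covariate. AURKA, a mitotic kinase, and MKI67, the Ki-67 proliferation antigen, had log2 fold changes of 0.27 and 0.16. This was not shared by the supplements, as AAC animals had a list median of -0.17, COMBO animals 0.12 and INR animals 0.51. All 34 constitutive proteasome subunit genes were above 0 (median 0.13, 8 with an unadjusted p below 0.05 and 1 with pen as the covariate), with PSMB2, a subunit of the catalytic core, at 0.27. The MHC class I antigen processing genes had 17 of 18 above 0 (median 0.13, 5 with an unadjusted p below 0.05), led by PDIA3, a chaperone of class I loading, at 0.21. Of the nuclear-encoded respiratory chain subunits, 72 of 81 were above 0 with a median of 0.12, and without animals 40 and 54 these were 44 of 81 and 0.01.

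The cytosolic ribosomal protein genes illustrate how far 2 libraries moved such a list. With all animals 78 of 80 were above 0 with a median log2 fold change of 0.19, and RPL9, a subunit of the large ribosomal particle, was at 0.26, yet none of the 80 had an unadjusted p below 0.05. Without animals 40 and 54 the median was -0.01 and 30 of 80 were above 0. The same omission took the median of the proteasome genes from 0.13 to 0.05 and that of the MHC class I genes to 0.08. The T cell, gamma-delta T cell, interferon, plasma cell and reticulum chaperone medians were then 0.23, 0.26, 0.45, 0.23 and 0.15.

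**Figure D2:**
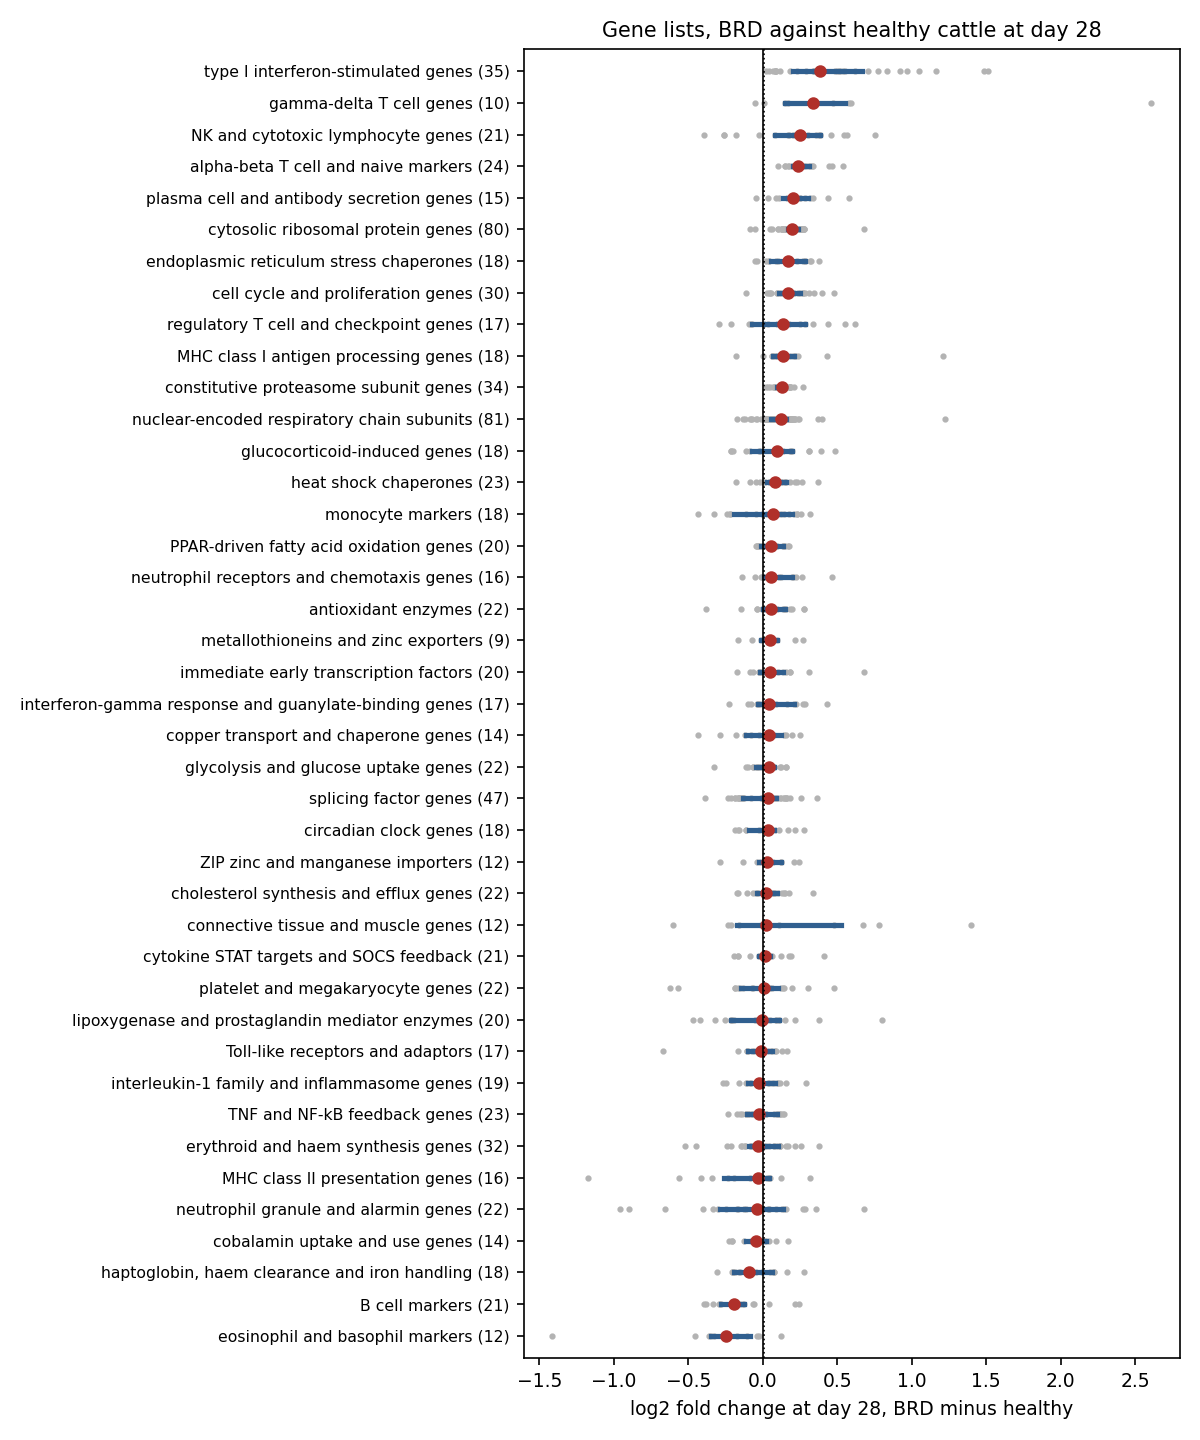
Log2 fold change of BRD over healthy at day 28 for each tested member of the gene lists (grey points) with the quartile range (bar) and the median (red point), sorted by median and with the number of genes in brackets. Interferon-stimulated and gamma-delta T cell genes lie at the top with medians of 0.38 and 0.34, eosinophil and B cell markers lie at the bottom, and no point passed the adjusted threshold.

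Myeloid and inflammatory genes were near the middle of all genes when the supplements were pooled. The neutrophil granule and alarmin genes had a median log2 fold change of -0.04 (11 of 22 above 0), the neutrophil receptors and chemotaxis genes 0.06 (12 of 16), the monocyte markers 0.07 (10 of 18), the interleukin-1 family and inflammasome genes -0.02 (9 of 19), the TNF and NF-kB feedback genes -0.03 (10 of 23), the Toll-like receptors and adaptors -0.01 (8 of 17) and the interferon-gamma response and guanylate-binding genes 0.04 (10 of 17). Within these lists CYBB, the catalytic subunit of the phagocyte oxidase, had the smallest p of the granule genes, with 128.2, 207 and 571 CPM (lowest, median and highest) in healthy animals and 46.2, 110 and 408 CPM in BRD animals. In 9 of the 14 BRD animals CYBB lay below the lowest healthy value, while the other 5 lay within the healthy range (log2 fold change -0.90, SE 0.291, edgeR adjusted p = 0.475). SLAMF7, an activating receptor of lymphocytes, was at 0.28. The cytokine STAT targets and SOCS feedback genes were at a median of 0.02 and the lipoxygenase and prostaglandin mediator enzymes at -0.01. The MHC class II presentation genes were at -0.03 and the immediate early transcription factors at 0.05. The supplements differed in these lists. Within AAC, COMBO and INR the granule genes had medians of 0.42, -0.18 and -0.19. The neutrophil receptors had 0.50, 0.17 and -0.05, and the monocyte markers 0.59, -0.49 and -0.06. The interleukin-1 family genes had 0.39, -0.23 and -0.21. The MHC class II genes went the other way, at -0.30, 0.36 and -0.05. Their summed level was 7819, 8036 and 15553 CPM in the BRD COMBO animals, against 6872 to 8669 CPM in healthy COMBO animals. The MHC class II list was not refitted without single animals.

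Of the eosinophil and basophil markers 1 of 12 was above 0 and the median log2 fold change was -0.25. No member had an unadjusted p below 0.05, and the medians within AAC, COMBO and INR were 0.37, -0.43 and -0.55. PRG3, an eosinophil granule protein, had medians of 2.91 and 0.781 CPM in healthy and BRD animals, and its estimate of -1.41 carried an SE of 0.782. SIGLEC8, an eosinophil surface lectin, had medians of 425 and 366 CPM and a log2 fold change of -0.22. Platelet and megakaryocyte genes had a median of 0.01 and erythroid and haem synthesis genes -0.03. The 12 tested connective tissue and muscle genes, which blood should largely lack, had a median of 0.02, and their summed level ran from 61 to 1387 CPM in healthy and from 63 to 1065 CPM in BRD animals. The 1 tested leukocyte immunoglobulin-like receptor gene was LILRA4 at -0.54, and none of the 6 cathelicidin genes in the table had enough counts to be tested.

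Genes that handle the supplemented minerals did not separate the groups either. Median log2 fold changes were 0.05 for metallothioneins and zinc exporters, 0.03 for ZIP zinc and manganese importers, 0.04 for copper transport and chaperone genes, -0.04 for cobalamin uptake and use genes and 0.06 for antioxidant enzymes, for which 4 of 22 members had an unadjusted p below 0.05. SLC39A14, a zinc and manganese importer induced in inflammation, had medians of 16.9 and 19.8 CPM (log2 fold change 0.21, SE 0.088, edgeR adjusted p = 0.542). SLC30A1, the zinc exporter of the plasma membrane, had medians of 105.2 and 90.5 CPM (-0.17), and PRDX6, a peroxiredoxin, was at 0.20. Of the remaining lists the medians were -0.09 for haptoglobin, haem clearance and iron handling, 0.09 for glucocorticoid-induced genes, 0.06 for PPAR-driven fatty acid oxidation genes, 0.04 for circadian clock genes, 0.08 for heat shock chaperones, 0.03 for cholesterol synthesis and efflux genes, 0.04 for glycolysis and glucose uptake genes and 0.04 for splicing factor genes. CPT1A, PDK4, FCGRT and ZDHHC3, genes that the study followed over time in healthy cattle, had log2 fold changes of -0.04, 0.13, 0.19 and 0.17 (edgeR adjusted p = 0.92, 0.824, 0.585 and 0.566).

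The main axes of variation did not separate the groups when the supplements were pooled. In a principal component analysis of 14766 genes the first 4 components held 22.8%, 14.6%, 7.30% and 5.15% of the variance. Mean scores of BRD and healthy animals differed by -32.6, 11.6, 20.2 and 11.26 on these components, with 2-sided permutation p of 0.185, 0.535, 0.119 and 0.311 (100000 permutations, Benjamini-Hochberg adjusted p = 0.37, 0.535, 0.37 and 0.414). BRD animals were more spread along the first component (SD 73.6, n = 14) than healthy animals (SD 24.8, n = 12), as animals 54 and 40 lay at -189 and -166 where the other 24 ran from -33 to 77. PAX5 and EBF1, transcription factors that define the B lineage, were among the 5 genes of largest weight on the second component. On that component AAC animals scored 24.3 to 113.9 with BRD and -85.7 to -10.4 without. COMBO animals had the opposite order, at -38.0 to -0.43 with BRD and 5.56 to 26.5 without. INR animals overlapped, at -88.7 to 54.7 with BRD and -59.2 to 46.1 without. Scores within single supplements were not tested.

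**Figure D3:**
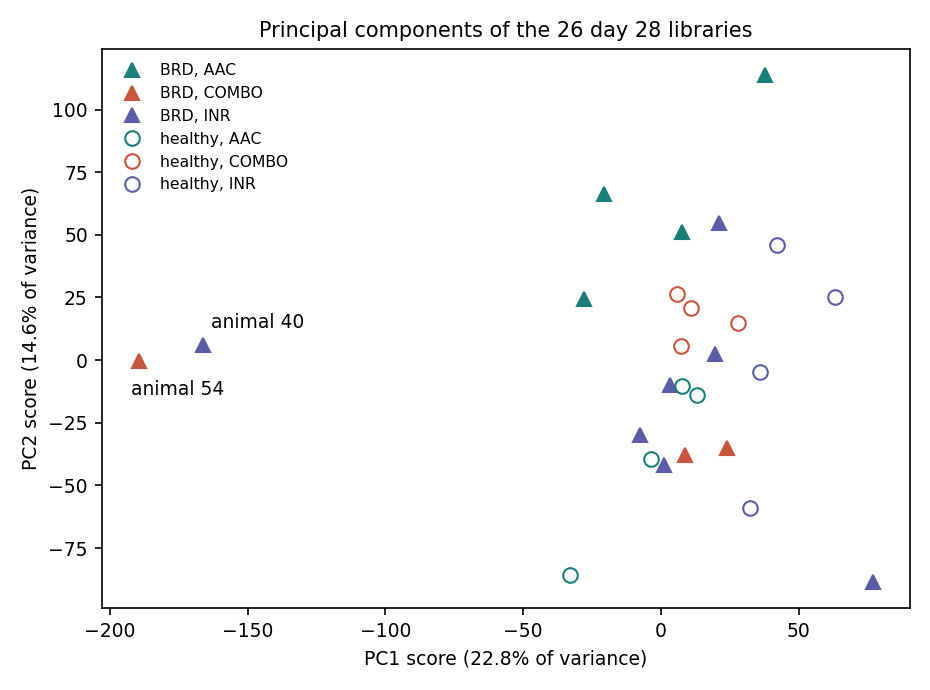
Scores of the 26 day 28 libraries on the first and second principal components (22.8% and 14.6% of the variance). Colour gives the supplement and shape gives disease (open circles healthy, filled triangles BRD). BRD and healthy animals are mixed when the supplements are pooled, and BRD animals 54 and 40 lie alone at the low end of the first component.

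The BRD difference was unlike between the supplement groups for a set of genes that included 9 of the 21 B cell markers. In a fit with a disease by supplement interaction, 180 of 16406 genes (1.10%) passed the joint test of both interaction terms. For most of them BRD animals were below healthy animals in AAC and above them in COMBO, and for 58 the signs were the opposite. Between pairs of supplements, the BRD difference in COMBO exceeded that in AAC for 507 genes (3.09%) and fell short of it for 341 (2.08%), a total of 848. No gene passed between INR and AAC (0 and 0%, with 2635 genes at an unadjusted p below 0.05) or between COMBO and INR (0 and 0%, with 532), by the same edgeR test. Within AAC, 490 genes were called, 365 of them lower in BRD (2.22%) and the rest higher (0.762%). Within COMBO none was called in either direction (0%, with 1764 genes at an unadjusted p below 0.05). Within INR none was called higher (0%) and 1 was called lower (0.00610%), with 1042 genes at an unadjusted p below 0.05. That gene was LOC112442318, a lncRNA singled out here after its values were seen, and it had 2461 reads in 1 healthy INR animal and between 5 and 29 in the other 10 INR libraries.

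Of the 21 B cell markers, 16 differed between COMBO and AAC in their BRD difference, all in the same direction, and 9 passed the joint test, where 3.09% and 1.10% of all genes did. In AAC, 15 of the 21 were called lower in BRD (2.22% of all genes), with a list median log2 fold change of -1.06, whereas the median was 0.35 in COMBO and 0.03 in INR. The summed level of the B cell markers in healthy AAC animals was 3580 and 5756 CPM in pen 2 and 3778 and 4989 CPM in pen 8. In BRD AAC animals it was 1696 and 2717 CPM in pen 2 and 2276 and 2424 CPM in pen 8. The groups did not overlap. Each pen held only 2 animals of each state, too few to weigh a lack of overlap by pen. In COMBO the order was turned around, with 2992, 3325, 3418 and 3430 CPM in healthy animals and 4046, 4182 and 5077 CPM in BRD animals, again without overlap. INR animals with and without BRD covered the same range, 2737 to 5357 CPM with BRD and 2856 to 5305 CPM without.

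EBF1, a factor that commits progenitors to the B lineage, measured 55.6, 90.9, 50.3 and 76.7 CPM in the 4 healthy AAC animals and 20.9, 38.1, 24.1 and 28.8 CPM in the 4 with BRD. In COMBO it measured 39.2, 43.36, 44.6 and 42.006 CPM in healthy animals and 64.5, 80.97 and 53.04 CPM in BRD animals. Both sets are free of overlap and point in opposite directions, with log2 fold changes of -1.29 in AAC and 0.65 in COMBO. That is a difference of 1.93 (SE 0.336, edgeR adjusted p = 0.0340). EBF1 was picked from all genes by its small p in this same test, so the lack of overlap is not separate evidence. CD79B, a signalling chain of the B cell receptor, had log2 fold changes of -1.38 in AAC, 0.76 in COMBO and 0.21 in INR. PAX5, which maintains B cell identity, had -1.26, 0.44 and 0.28, and MS4A1 had -1.23, 0.35 and 0.02. POU2AF1, a B cell coactivator needed for germinal centres, was lower in BRD by 0.83 on the log2 scale in AAC and at 0.73 in COMBO. BOLA-DOA, a B cell modulator of class II peptide loading, was lower by 0.97 in AAC and at 0.46 in COMBO.

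**Figure D4:**
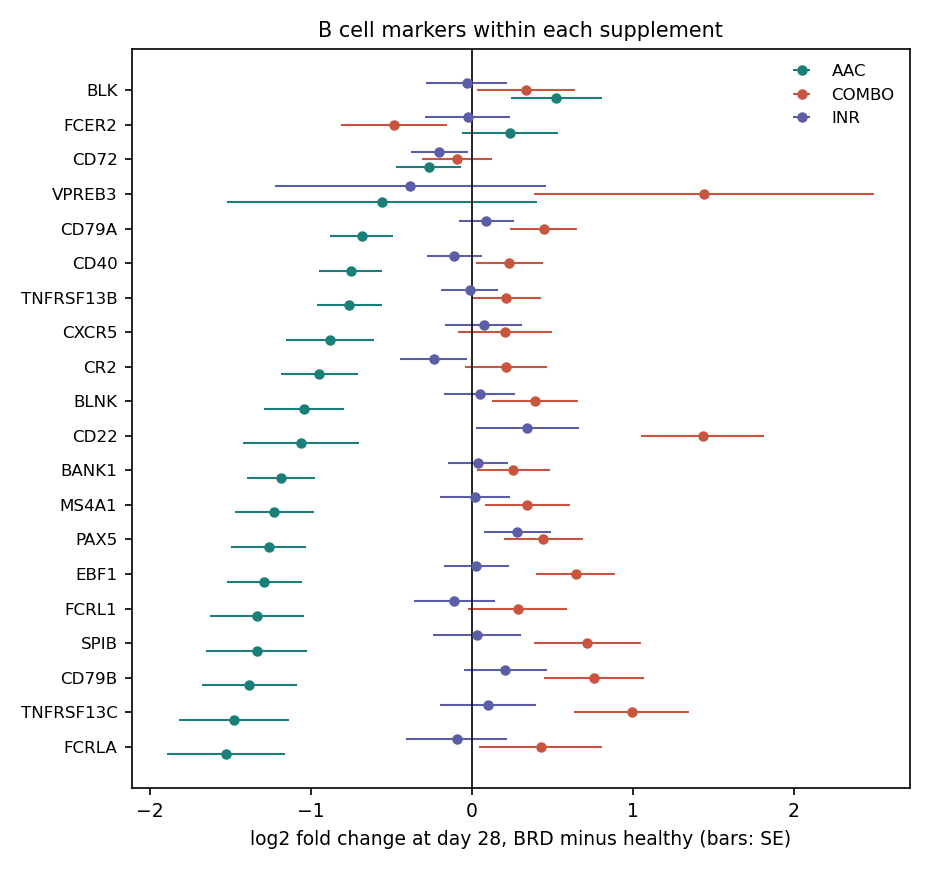
Log2 fold change of BRD over healthy at day 28 within AAC, COMBO and INR for 20 of the 21 B cell markers, with bars of 1 SE. Most markers lie near -1 in AAC, above 0 in COMBO and near 0 in INR, for medians over all 21 of -1.06, 0.35 and 0.03.

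Genes outside the B lineage were also among those of smallest interaction p. ARHGEF40, a guanine nucleotide exchange factor, was at 14.97 to 17.41 CPM in healthy and 19.2 to 27.6 CPM in BRD animals of AAC, and at 22.9 to 33.9 CPM in healthy and 12.1 to 16.7 CPM in BRD animals of COMBO. The difference between those fold changes was -1.57 (SE 0.248, edgeR adjusted p = 0.0340). NBDY, a microprotein of the mRNA decapping machinery, was at 4.78 to 5.44 CPM in healthy and 7.53 to 11.5 CPM in BRD animals of AAC. Its log2 fold change was 0.80 in that supplement, with -0.23 in COMBO and -0.34 in INR. The lncRNA LOC100847382 had the largest difference of the named genes, 3.02 (SE 0.534, edgeR adjusted p = 0.0340), from -1.43 in AAC to 1.59 in COMBO. CX3CR1, the fractalkine receptor of patrolling monocytes and cytotoxic lymphocytes, was the monocyte marker that passed the joint test, with 0.49 in AAC and -1.15 in COMBO. The monocyte list had medians of 0.59 in AAC and -0.49 in COMBO, and the neutrophil receptors and chemotaxis genes 0.50 and 0.17, while the NK and cytotoxic lymphocyte genes had 0.55 and -0.36.

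Of the mineral genes, SLC39A10, a plasma membrane zinc importer that B cells require, measured 69.3, 70.5, 62.997 and 65.4 CPM in healthy AAC animals and 48.2, 48.7, 46.2 and 43.96 CPM in those with BRD. It was lower in BRD by 0.52 on the log2 scale in AAC (SE 0.099, edgeR adjusted p = 0.0260), and at 0.03 in COMBO and 0.07 in INR. SLC39A10 was named for passing the interaction test, so the gap between its AAC values is not separate evidence. HFE, which tunes iron uptake at the transferrin receptor, and LRP1, the receptor that clears haem bound to haemopexin, passed the joint test with -0.55 and -0.88 in COMBO against 0.60 and 0.57 in AAC. SYVN1, the ubiquitin ligase of reticulum-associated degradation, was lower in BRD by 0.59 in AAC, against 0.30 in COMBO. None of the other 17 reticulum chaperones passed in either test.

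Some T cell genes were higher in BRD animals within AAC. LAG3 had 15.26, 21.4, 25.6 and 16.97 CPM in the healthy AAC animals and 50.1, 52.3, 47.2 and 53.31 CPM in those with BRD. Its log2 fold change within AAC of 1.36 (SE 0.214, edgeR adjusted p = 0.0222) had the smallest p of all genes there. The gap between these values is therefore not separate evidence. The log2 fold change was 0.13 in COMBO and 0.38 in INR, and LAG3 was just outside the joint interaction threshold (edgeR adjusted p = 0.10004). CD247 and ZAP70, both needed for T cell receptor signalling, were called higher in BRD within AAC, at 0.77 and 0.64. So were WC1.3, SOX13 and GATA3, of the gamma-delta T cell genes, at 1.36, 1.27 and 0.85. The remaining 22 alpha-beta and 7 gamma-delta T cell genes did not pass within AAC, where 0.762% of all genes were called higher. All values are relative to the total of each library, and absolute amounts were not measured.

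These supplement-specific calls rest on 3 or 4 animals per group and changed with single animals. Groups this small can lack overlap by chance, and the share of all genes without overlap within a supplement was not counted. The joint count of 180 dropped to 0 when animal 6 or 42 (healthy COMBO), 9 or 21 (BRD AAC), or 48 or 49 (healthy AAC) was left out. The count within AAC dropped from 490 to 0 without animal 49, 1 without animal 9 or 21, and 55 without animal 48. Of the 21 B cell markers, between 6 and 17 passed between COMBO and AAC, the fewest without animal 21 or 49. Within AAC, between 0 and 16 were called lower in BRD, with 0 without animal 9, 21 or 49 and 5 without animal 48. The B cell list median within AAC lay between -1.26 and -0.91 over all 26 omissions, and LAG3 lost its call within AAC only without animal 49 (log2 fold change 1.40, edgeR adjusted p = 0.124).

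The BRD difference at day 28 was then set against the same difference on the other days in the same animals, with animal as a block. None of 17853 genes changed its BRD difference between day 28 and day 0, 13, 45 or 60 (0% in each, edgeR quasi-likelihood test), with 900, 458, 400 and 425 genes at an unadjusted p below 0.05. limma voom with a correlation within animals called 0, 0, 1 and 0 genes. Among the 3 genes of smallest p against day 0 was LOC112446357, at -0.33 on day 0 and 0.17 on day 28, a change of 0.50 (SE 0.113, edgeR adjusted p = 0.260). Fitted on its own without a block, none of the days gave a call, and the smallest adjusted p was 0.864 on day 0, 1 on day 13, 0.968 on day 45 and 1 on day 60, against 0.117 for day 28, each day being fitted without the others over the genes kept for all days. LAG3 was at 0.62 on day 0, 0.55 on day 13, 0.62 on day 28, 0.29 on day 45 and 0.30 on day 60.

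The list medians followed different courses over the days. That of the type I interferon-stimulated genes was 0.67 on day 0, 0.38 on day 13, 0.39 on day 28, 0.09 on day 45 and -0.12 on day 60. Single BRD animals stood high on the early days too. On day 0 animals 18, 54 and 43 had sums of 40633, 33710 and 25329 CPM, against a healthy maximum of 16301 CPM. On day 13 animal 16 had 34394 CPM and the next, animal 17, had 18211 CPM. These days were not refitted without single animals. The alpha-beta T cell and naive markers were at 0.03, 0.10, 0.24, 0.07 and 0.06, with the highest value on day 28. The gamma-delta T cell genes lay between 0.29 and 0.47 on all days, and the B cell markers between -0.22 and -0.13.

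The B cell pattern by supplement was present on every sampling day, including day 0, the day of pen enrolment. COMBO animals had by then been drenched before shipment. The paper treats day 0 expression differences as not reflecting the supplements. Why the supplement groups differed was not tested. In AAC the highest BRD sum of the B cell markers was 2305 CPM on day 0 against a lowest healthy sum of 2989 CPM, and on days 13, 28, 45 and 60 these were 2812 against 3050, 2679 against 3502, 2921 against 3643, and 2785 against 3450 CPM. In COMBO the lowest BRD sum was above the highest healthy sum on day 0 (3375 against 3034 CPM), day 13 (3694 against 3358) and day 28 (3936 against 3391), and the ranges met on day 45 (3850 against 4624) and day 60 (3743 against 3840). These sums come from the same animals on each day and from 1 scaling of all libraries.

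**Figure D5:**
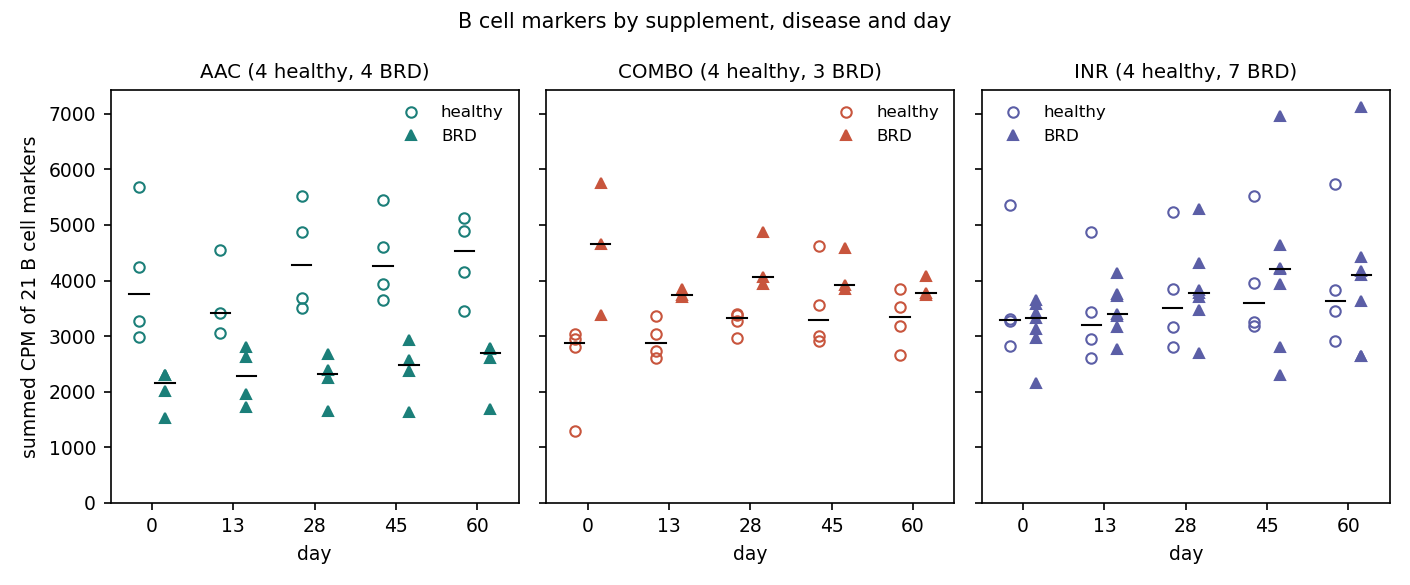
Summed CPM of the 21 B cell markers by supplement and sampling day, with 1 point per animal (circles healthy, triangles BRD) and lines at group medians. In AAC the BRD animals lie below the healthy animals on all 5 days, in COMBO they lie above on days 0, 13 and 28, and in INR the groups overlap.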

How the data were processed

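Blood was drawn into Tempus tubes and libraries were made with a stranded mRNA kit. Per the labels and the study's methods, the authors trimmed reads with Trimmomatic 0.39 (quality checked with FastQC 0.11.9), aligned them to ARS-UCD1.3 with HISAT2 (2.1.1 in the submitters' processing notes), assembled with StringTie 2.2.0 and deposited whole-number gene counts derived from StringTie coverage, transcript length and read length. Such counts follow the assembled models, and reads of near-identical genes can be split among them.

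The 26 day 28 columns were matched to animals by name and to groups by the disease and treatment labels. Nothing was left out at day 28. Genes were kept by edgeR's filterByExpr (minimum count 10, by disease), scaled by TMM and tested in R 4.3.3 with edgeR 4.0.16 quasi-likelihood F-tests on a common dispersion (disease with supplement as covariate), with Benjamini-Hochberg adjustment and a threshold of 0.10. The interaction fit added disease by supplement terms, and the between-day fit used all 129 libraries with animal as a block, because samples of 1 animal shared deviations (median correlation 0.387 between days within animals and -0.0101 between animals). The CPM values are counts scaled to library size and TMM factors and the SE is the log2 fold change over the square root of F. Each library is 1 animal, so p-values measure the spread between animals. Principal components were computed on log2 CPM with a prior count of 2 after removing the 10% of genes of lowest variance. DESeq2 1.42.0, limma 3.58.1, other covariates, filters, scalings and the omission of each animal were alternatives, and the scripts were tested on simulated data. Figures used Python 3.11.15 and matplotlib 3.10.9.

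Named genes were the 5 of smallest p in each direction when none was called, up to 4 called members of each gene list or its members of smallest p and highest level, 4 genes the study followed over time, and the 3 of smallest p in each interaction or between-day test, of which a selection is printed. The comparison and the gene lists were chosen with earlier results of these data known. Of 1023 list members 950 were tested. Values of some single genes are not reported here. Gene classes come from a RefSeq table of another assembly (ARS-UCD2.0), so no coordinates are given and no sequences are printed.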

Additional observations from a re-analysis of the deposited data

Results flagged for a closer look

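The joint disease by supplement test passed 180 genes, and the BRD difference differed between COMBO and AAC for 848 genes, among them 16 of the 21 B cell markers, by edgeR's test of the difference itself. Of the genes of smallest p, the BRD difference in COMBO minus that in AAC was -1.57 on the log2 scale for ARHGEF40, 1.93 for EBF1, -1.03 for NBDY and 3.02 for LOC100847382. In COMBO, disease, pen and the extra drench cannot be told apart.

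Summed levels of the interferon, B cell, plasma cell, alpha-beta T cell, gamma-delta T cell and ribosomal protein lists were searched. The search looked for a single sample far from the others of its supplement and disease group, in 30 groups, of which chance flags about 1 in 20. The 3 BRD COMBO animals were too few for this search, so animals 16, 18 and 54 were not checked. Healthy COMBO animal 6 had 10013 CPM of type I interferon-stimulated genes, where the other healthy COMBO animals had 4519 to 5249 CPM. BRD INR animal 40 had 88269 CPM of cytosolic ribosomal protein genes, where the other BRD INR animals had 38188 to 53367 CPM.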

How the results depend on the processing

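Against 0 genes called across supplements, 1 was called with no covariate, 22 with pen in place of supplement, 1 in pens 2, 3, 4 and 8 with pen as covariate, 945 in AAC animals alone, 2 without COMBO, 1 by limma voom, 25 by DESeq2, 1 with the libraries of all days in 1 fit of group means without a block, and 1 each without animals 40 and 54 and without 18, 40 and 54, both chosen after seeing the data. Leaving out 1 animal gave 0 to 11 (without BRD animal 43). The joint interaction count of 180 was 303 without animals 40 and 54, 71 with the filter by supplement and disease, 1170 by DESeq2, and 0 to 669 without 1 animal. The COMBO against AAC count of 848 ranged from 53 (without animal 21) to 1202 (without animal 31). The AAC count of 490 was 949 without animals 40 and 54, 945 in AAC animals alone, 296 in AAC animals alone with pen as covariate, and 0 to 692 without 1 animal. For day 28 against day 45, limma voom called 1 gene. The difference in mean score on the fourth principal component ranged from 0.47 (without animal 18) to 21.9 (without animal 43). The cause of these shifts was not tested.

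Without the replicate block for animal, all 4 between-day counts were 0, as with it, with 325, 286, 194 and 191 genes at an unadjusted p below 0.05 (edgeR).

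The sign turned for single genes in 23 instances, none of them called. With pen in place of supplement JCHAIN was at -0.091 and CPT1A at 0.26, and in pens 2, 3, 4 and 8 they were at -0.090 and 0.26, while SIGLEC8 was at 0.029 and 0.031 in these fits. In AAC alone JCHAIN was at -0.21, AURKA -0.059, MKI67 -0.11, RPL9 -0.0057, CPT1A 0.28 and SIGLEC8 0.46. In COMBO alone CR2 was at 0.20, MS4A1 0.33, EOMES -0.14, MKI67 -0.039, PDK4 -0.58 and PRG3 0.058, and in INR alone MS4A1 was at 0.020. CPT1A was at 0.097 without COMBO, between -0.099 (without animal 10) and 0.044 (without animal 7) when 1 animal was left out, and at 0.024 without animals 18, 40 and 54. Of the interaction genes named, SLC39A10 lost its call between COMBO and AAC without animal 3, 6, 9, 16, 18, 21, 42 or 49, HFE and SYVN1 without 21 or 49, NBDY without 21 and LRP1 without 49. RLE scaling kept the median of all genes at 0.01. Counts per library limit the precision for genes with few reads.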
